A study of Mus musculus with 4 samples.

Results

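The genes described here are 9 mouse serine protease genes with transcripts known from testis: Prss21, Prss41, Prss42, Prss43, Prss44, Prss45, Prss46, Prss50 and Prss55. They were found by their symbols among the 55335 genes of the deposited count table, and each symbol matched 1 row. The 9 were chosen by their levels in these same libraries and by the difference between genotypes, so the difference between genotypes is given for them as a description, without a test. The libraries were made from poly(A) RNA of fresh testes taken at postnatal day 14, and 2 carry the genotype label Znhit1_KO and 2 the label CTRL. All 4 share the tissue and the age, and the labels describe the 2 libraries of a genotype as independent biological replicates. The sources used here do not give the allele, the Cre driver if any, the strain or the number of animals per library. Germ cells are named in the design text of the series, but the sample labels give testis, and markers of somatic cells were detected (values are given with the marker lists). ZNHIT1 belongs to a chromatin remodelling complex that places the histone variant H2A.Z, and the knockout was compared with CTRL to find transcripts that depend on it.

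Trypsin-like serine proteases cut proteins with a catalytic serine that works together with a histidine and an aspartate, and most are made as inactive precursors. The testis expresses a set of its own, several of them held on the cell surface by a lipid (GPI) anchor. In the mouse such enzymes have been tied to the survival of germ cells in meiosis, to sperm maturation and to the surface proteins with which sperm pass the female tract. At postnatal day 14 the germ cells of a mouse testis have reached meiotic prophase, and spermatids have yet to form.

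Of the 9 genes, 6 lie side by side on chromosome 9 in the order Prss42, Prss44, Prss43, Prss45, Prss46 and Prss50 (mm10, GENCODE M21). They occupy 66464 bases from 110798166 to 110864629, all on the plus strand, with 0 other annotated genes between them. The gaps between neighbours run from 1444 bases, between Prss46 and Prss50, to 10239 bases, between Prss42 and Prss44. Prss41 (23836785 to 23844172, minus strand) and Prss21 (23868056 to 23873114, plus strand) are on chromosome 17, where Prss32 and the antisense gene Gm15947 lie between them. Prss41 and Prss32 run in opposite directions and overlap by 318 bases at their starts. Prss55 (64075438 to 64090162, minus strand) is on chromosome 14 and overlaps Prss51. Whether reads were counted by strand is not stated, so reads from such overlaps cannot be assigned to 1 gene.

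The coding sequences of the 9 genes have between 942 bases (Prss46) and 1317 bases (Prss50). Over the 36 pairs, identity in the aligned bases had a median of 61.4% and ranged from 58.5% to 67.5%. The most alike pair was Prss42 and Prss44, followed by Prss43 and Prss44 at 66.9% and by the chromosome 17 pair Prss21 and Prss41 at 66.4%. Of all 50-base windows of the transcripts of each gene, 0 occurred in the same orientation in a transcript of another gene. With their orientation known, reads of at least that length without errors could therefore be assigned to 1 of these genes. Without it, reads from the overlaps named above could not.

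Promoters were looked up because 5 of the 6 neighbours on chromosome 9 had log2 changes between genotypes larger in size than that of Prss50. RefSeq sequences (GRCm38.p6, which is mm10), from 250 bases before to 50 bases after the gene's start, were at hand for 6 of the 9 genes: Prss21, Prss41, Prss42, Prss45, Prss46 and Prss50. The 3 shown are those of the first and the last gene of the row on chromosome 9 and of Prss46 next to Prss50. They are written 5′ to 3′ on the plus strand, and capitals mark a match to a searched motif. The regions are chr9:110797935-110798234, chr9:110844256-110844555 and chr9:110857714-110858013.
Prss42: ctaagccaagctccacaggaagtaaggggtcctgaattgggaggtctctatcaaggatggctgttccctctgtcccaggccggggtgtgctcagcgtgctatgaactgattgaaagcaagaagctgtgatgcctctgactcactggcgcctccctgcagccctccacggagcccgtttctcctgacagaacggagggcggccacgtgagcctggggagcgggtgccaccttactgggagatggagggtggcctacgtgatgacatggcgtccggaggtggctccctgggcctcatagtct
Prss46: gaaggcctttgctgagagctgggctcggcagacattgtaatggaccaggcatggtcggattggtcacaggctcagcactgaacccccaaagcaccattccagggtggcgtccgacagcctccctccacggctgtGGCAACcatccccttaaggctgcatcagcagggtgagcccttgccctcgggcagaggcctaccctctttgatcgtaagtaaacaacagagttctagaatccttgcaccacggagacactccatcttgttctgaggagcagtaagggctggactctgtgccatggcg
Prss50: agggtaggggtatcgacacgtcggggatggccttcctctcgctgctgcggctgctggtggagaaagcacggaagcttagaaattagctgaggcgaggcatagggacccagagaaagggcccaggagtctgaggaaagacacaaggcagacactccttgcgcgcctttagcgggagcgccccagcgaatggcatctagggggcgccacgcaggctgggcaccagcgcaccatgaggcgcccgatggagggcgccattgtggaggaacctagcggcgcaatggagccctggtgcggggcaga
The search used CAACTG, the core of the MYB site, TGACGT, a core of the cAMP response element, and GTTGCC, a core of the RFX site, on both strands. Read on the minus strand GTTGCC is GGCAAC, which can share its last letters with CAACTG, so matches to these 2 motifs can overlap. CAACTG was found in 0 of the 6 promoters, against 13.7% of all 32851 promoters of the table, and TGACGT in 0 of 6, against 7.51%. GTTGCC was found in 2 of 6, against 12.5%: once in Prss46, in the capitals above on the minus strand, and at 2 places in Prss21. These are matches of letters only. The Prss50 promoter had a GC content of 64.0% and 21 CG dinucleotides, while the other 5 had 54.3% to 60.7% GC and 9 to 12 CG dinucleotides. The median over the table was 52.7% GC and 7 CG dinucleotides.

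Before the results, 1 check of the labels: Znhit1 itself stood at 8.0 and 5.24 TPM in Znhit1_KO replicates 1 and 2, against 55.4 and 90.2 TPM in CTRL replicates 1 and 2. TPM (the authors' values) are scaled to transcript length and library total, so they allow levels of different genes to be compared. The estimated counts of the deposited table summed to 157790457 and 136732861 in the Znhit1_KO libraries and to 129531714 and 136178177 in the CTRL libraries. The sums were not taken as numbers of reads. Log2 changes below come from an edgeR fit of those counts over all 24116 genes that passed a filter on low counts, and a negative value means lower in Znhit1_KO. Of the 9 Prss genes, 8 passed this filter.

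Prss50 was the most abundant of the 9 in every library, and of the 8 genes tested it had the log2 change nearest to 0 with TMM scaling. Its protein, also called TSP50, carries a threonine in place of the catalytic serine and is known from spermatocytes. Prss50 stood at 146.8 and 184.6 TPM in Znhit1_KO replicates 1 and 2, against 209.6 and 208.5 TPM in CTRL replicates 1 and 2. Both Znhit1_KO libraries were below both CTRL libraries, and the mean was 166 ± 26.8 TPM in Znhit1_KO and 209 ± 0.795 TPM in CTRL (SD, n = 2 each). The log2 change was -0.38 (SE 0.181). Prss50 made up 86.4% and 85.6% of the summed TPM of the 8 genes in Znhit1_KO replicates 1 and 2, against 80.5% and 70.1% in CTRL replicates 1 and 2. The summed TPM of the other 7 was 23.1 and 31.1 in Znhit1_KO and 51.0 and 88.7 in CTRL, in the same order of replicates.

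**Figure D1:**
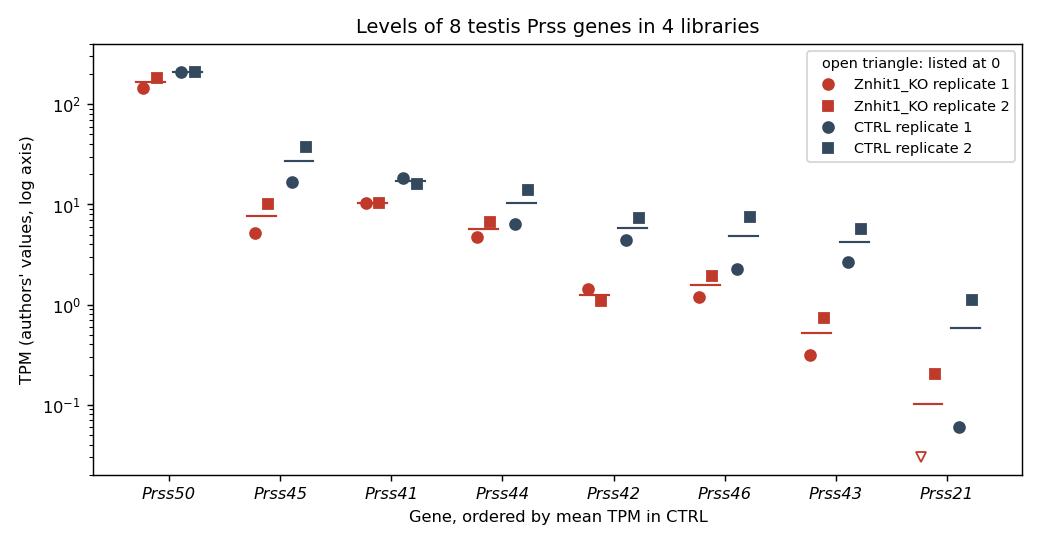
Authors' TPM (log axis) of 8 Prss genes in each library, with the mean of each genotype as a line and genes ordered by their mean in CTRL. Prss50 sits between 147 and 210 TPM in all 4 libraries, while Prss43 sits at 0.314 and 0.731 TPM in Znhit1_KO and 2.69 and 5.69 TPM in CTRL.

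Prss42 and Prss43, also known as Tessp2 and Tessp3, have been linked to germ cell survival during meiosis in the mouse. Prss43 had the most negative log2 change among the 9. It stood at 0.314 and 0.731 TPM in Znhit1_KO replicates 1 and 2, against 2.69 and 5.69 TPM in CTRL replicates 1 and 2. Within each genotype replicate 2 was over 2 times replicate 1, with ratios of 2.33 in Znhit1_KO and 2.12 in CTRL, yet the genotypes did not overlap. The log2 change was -3.07 (SE 0.653), and 1.48% of all tested genes had a lower value. With Znhit1_KO replicate 2 left out it was -3.80, and with CTRL replicate 2 left out -2.30.

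Prss42 stood at 1.43 and 1.10 TPM in Znhit1_KO replicates 1 and 2, against 4.37 and 7.36 TPM in CTRL replicates 1 and 2. The genotypes did not overlap, and in contrast to Prss43 the second Znhit1_KO library was the lower one of its pair. The log2 change was -2.28 (SE 0.445), with 2.83% of tested genes lower. With CTRL replicate 2 left out it was -1.73, and with CTRL replicate 1 left out -2.67.

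Prss44, Prss45 and Prss46, or Tessp4 to Tessp6, are less well studied. Prss45 had 5.15 and 10.1 TPM in Znhit1_KO replicates 1 and 2, against 16.9 and 37.1 TPM in CTRL replicates 1 and 2. All 4 libraries were apart by genotype, and the mean was 7.64 ± 3.53 TPM in Znhit1_KO and 27 ± 14.3 TPM in CTRL (SD, n = 2 each). The log2 change of Prss45 was -1.90 (SE 0.560), and -1.09 without CTRL replicate 2.

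Prss46 had 1.18 and 1.94 TPM in Znhit1_KO replicates 1 and 2, against 2.28 and 7.5 TPM in CTRL replicates 1 and 2. The genotypes did not overlap, but CTRL replicate 1 lay close to Znhit1_KO replicate 2, and the log2 change of -1.71 (SE 0.708) became -0.46 when CTRL replicate 2 was left out, or -2.38 when CTRL replicate 1 was. Prss44 had 4.76 and 6.66 TPM in Znhit1_KO replicates 1 and 2, against 6.38 and 14.1 TPM in CTRL replicates 1 and 2. Here the genotypes overlapped, since Znhit1_KO replicate 2 was above CTRL replicate 1. The log2 change of Prss44 was -1.02 (SE 0.515), and -0.22 without CTRL replicate 2.

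**Figure D2:**
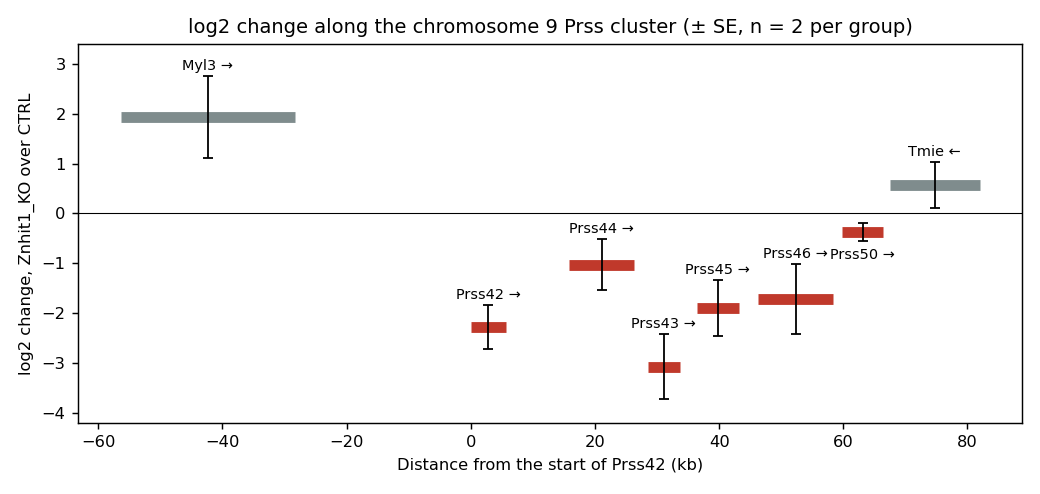
Log2 change of each gene (bar spanning the gene, error bar ± SE, n = 2 libraries per genotype) against its distance in kb from the start of Prss42; arrows give the strand, red bars are the 6 Prss genes and grey bars their neighbours. The Prss genes run from -3.07 (Prss43) to -0.38 (Prss50), between Myl3 at 1.94 and Tmie at 0.58.

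Along the chromosome, the 6 Prss genes had negative log2 changes and the genes on either side did not. Myl3, a myosin light chain gene upstream of Prss42, stood at 0.839 and 1.54 TPM in Znhit1_KO and 0.464 and 0.0953 TPM in CTRL, with a log2 change of 1.94 (SE 0.823). Tmie, a hearing gene that starts beyond Prss50 on the minus strand, stood at 39.4 and 20.5 TPM in Znhit1_KO and 27.3 and 12.7 TPM in CTRL, with a log2 change of 0.58 (SE 0.457). The edgeR test, adjusted over all genes, called neither neighbour (adjusted p = 0.491 for Myl3 and 0.698 for Tmie). It called 0 of all 24116 genes, so it cannot tell whether the 6 Prss genes differ from the neighbours. Myl3 had 42 and 68 estimated counts in Znhit1_KO and 20 and 6 in CTRL.

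On chromosome 17, Prss41 was lower in both Znhit1_KO libraries, with little spread between replicates. Prss41, or Tessp1, encodes a GPI-anchored protease of the testis. It stood at 10.3 and 10.4 TPM in Znhit1_KO replicates 1 and 2, against 18.3 and 15.9 TPM in CTRL replicates 1 and 2. The log2 change was -0.89 (SE 0.220) and lay between -0.86 and -0.92 with any 1 library left out. Its overlapping neighbour Prss32 had 31 and 16 estimated counts in Znhit1_KO and 33 and 34 in CTRL, against 898 and 764 in Znhit1_KO and 1368 and 1361 in CTRL for Prss41.

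Prss21, or testisin, is a GPI-anchored protease of sperm that acts in sperm maturation, and it was barely detected. It was listed at 0 and 0.203 TPM in Znhit1_KO replicates 1 and 2, against 0.0594 and 1.10 TPM in CTRL replicates 1 and 2. The genotypes overlapped, and 1 library, CTRL replicate 2, held 75 of its estimated counts, with 17 in Znhit1_KO replicate 2, 4 in CTRL replicate 1 and 0 in Znhit1_KO replicate 1. The log2 change of -2.33 had an SE of 1.90 and was 1.01 without CTRL replicate 2.

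Prss55 encodes a GPI-anchored protease that mouse sperm need to pass into the oviduct. It was listed at 0 in all 4 libraries and was not tested. A count of 0 allows up to 3 counts, or 0.0190 and 0.0216 CPM in Znhit1_KO replicates 1 and 2 and 0.0222 and 0.0234 CPM in CTRL replicates 1 and 2 (CPM, counts scaled to the TMM-adjusted library size). That limit covers counting error only, and it takes each estimated count as 1 read. Whether this holds was not tested, and with the excess at multiples of 4 the limit may be too low.

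The order of the levels was much alike in both genotypes. In Znhit1_KO the mean TPM ran from Prss50 through Prss41, Prss45, Prss44, Prss46, Prss42 and Prss43 to Prss21. In CTRL it ran from Prss50 through Prss45, Prss41, Prss44, Prss42, Prss46 and Prss43 to Prss21. Neighbours in this order whose replicates overlapped were Prss45 with Prss44 and Prss46 with Prss42 in Znhit1_KO. In CTRL they were Prss45 with Prss41, Prss44 with Prss42, Prss42 with Prss46 and Prss46 with Prss43.

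Of the 8 genes tested, 8 had a negative log2 change, with a median of -1.81, beside a median of 0.031 over all 24116 genes. Both Znhit1_KO libraries were below both CTRL libraries for 6 of the 8 (Prss41, Prss42, Prss43, Prss45, Prss46 and Prss50), and for 21.3% of all tested genes. The authors' deposited table marks 3 of them as lower (Prss42, Prss43 and Prss45) and 0 as higher, where it marks 3.22% of its 25236 genes as lower and 0.277% as higher. The rule for the mark is not stated. Prss41 was left unmarked with a log2 fold change of -0.895 and an adjusted p of 0.0174 in the authors' DESeq2 comparison. Since these values led to the choice of the genes, nothing is read from the counts. Without CTRL replicate 2 the median was -0.66, and with any 1 of the other libraries left out it was between -2.40 and -1.31.

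Libraries of 1 genotype also differed from each other, by gene. For Prss43, Prss44, Prss45 and Prss46, Znhit1_KO replicate 2 was 1.40 to 2.33 times Znhit1_KO replicate 1, and CTRL replicate 2 was 2.12 to 3.29 times CTRL replicate 1. The same ratio was 0.768 in Znhit1_KO and 1.68 in CTRL for Prss42, and 18.6 in CTRL for Prss21, at its low counts. For Prss41 it was 1.00 in Znhit1_KO and 0.867 in CTRL, and for Prss50 1.26 in Znhit1_KO and 0.995 in CTRL. These are ratios of TPM, and CPM differed in part. In CTRL replicates 1 and 2, Prss41 had 10.1 and 10.6 CPM and Prss50 116 and 132 CPM, so replicate 2 was higher for both. In Znhit1_KO replicates 1 and 2, Prss41 had 5.68 and 5.50 CPM and Prss50 83.9 and 106 CPM.

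The marker genes of germ cell stages were measured in the same libraries. The 12 pachytene markers, of mid-meiotic spermatocytes, summed to 945 and 1398 CPM in Znhit1_KO replicates 1 and 2, against 1789 and 3650 CPM in CTRL replicates 1 and 2. All 12 had a negative log2 change (median -1.45), 11 were lower in both Znhit1_KO libraries, beside 21.3% of all tested genes, and 0 were at 0 in every library. Piwil1, which binds pachytene piRNAs, had a log2 change of -1.57 (SE 0.475), the sperm lactate dehydrogenase gene Ldhc -1.88 (SE 0.592), the chaperone gene Clgn -1.34 (SE 0.427) and the heat shock gene Hspa2 -0.89 (SE 0.310).

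The 10 early meiotic markers summed to 1750 and 2428 CPM in Znhit1_KO and 2376 and 3267 CPM in CTRL, with a median log2 change of -0.33. The 10 spermatogonia markers summed to 728 and 787 CPM in Znhit1_KO and 713 and 817 CPM in CTRL, with a median of -0.022. The 12 spermatid markers summed to 6.73 and 8.70 CPM in Znhit1_KO and 9.08 and 10.5 CPM in CTRL, with Catsper1 at 0 in every library.

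Among somatic cells, the 12 Sertoli markers summed to 9065 and 7802 CPM in Znhit1_KO and 6397 and 6680 CPM in CTRL, and all 12 had a positive log2 change (median 0.46). The 8 Leydig markers summed to 236 and 250 CPM in Znhit1_KO and 174 and 176 CPM in CTRL (median 0.41), and the 6 macrophage markers to 54.3 and 75.9 CPM in Znhit1_KO and 48.6 and 56.0 CPM in CTRL (median 0.68). The 5 peritubular markers (median -0.0026) and the 4 endothelial markers (median 0.26) summed to 640 to 807 and 69.4 to 74.5 CPM in Znhit1_KO, and to 717 to 763 and 57.8 to 62.9 CPM in CTRL. Of 8 markers of mast cells and granulocytes, whose granules hold serine proteases, 5 were at 0 in every library (Mcpt4, Tpsab1, Fcer1a, Elane and S100a8), and the sum was 0.165 and 0.663 CPM in Znhit1_KO and 0.311 and 0.608 CPM in CTRL. The part of these shifts in the Prss values was not tested, and in whole testis fewer cells of a type and less RNA per cell cannot be told apart.

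**Figure D3:**
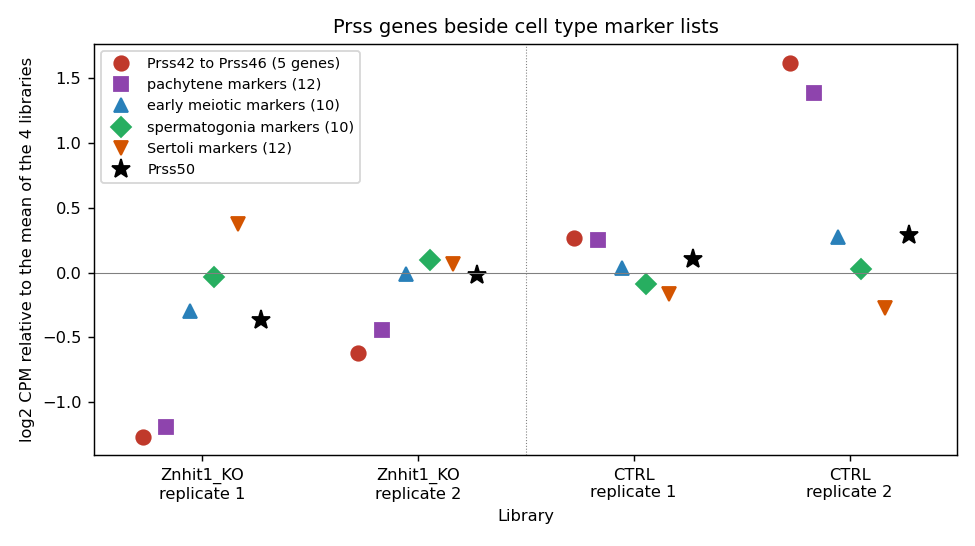
Mean log2 CPM of 5 Prss genes (Prss42 to Prss46), of Prss50 and of 4 marker lists in each library, relative to the mean of all 4 libraries. The 5 Prss genes stand at -1.26 and -0.62 in Znhit1_KO and 0.26 and 1.62 in CTRL, beside -1.19 and -0.44 in Znhit1_KO and 0.25 and 1.38 in CTRL for the pachytene markers.

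The 5 genes Prss42 to Prss46 had library means close to those of the pachytene markers, and Prss50 lay nearer to the early meiotic markers. Relative to the mean of all libraries, the 5 genes averaged -1.26 and -0.62 log2 CPM in Znhit1_KO replicates 1 and 2, and 0.26 and 1.62 in CTRL replicates 1 and 2. The pachytene markers averaged -1.19 and -0.44 in Znhit1_KO and 0.25 and 1.38 in CTRL, in the same order. Prss50 stood at -0.37 and -0.022 in Znhit1_KO and 0.10 and 0.29 in CTRL, beside -0.30 and -0.012 in Znhit1_KO and 0.038 and 0.27 in CTRL for the early meiotic markers.

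With the libraries scaled on the summed pachytene markers, an option added with the values known, all genes shifted by a median of 1.12. Prss43 (-1.87), Prss42 (-0.99), Prss21 (-0.99), Prss45 (-0.67) and Prss46 (-0.37) then remained negative, while Prss41 (0.22), Prss44 (0.23) and Prss50 (0.71) were positive. All 8 lay below the median shift of all genes. They had also been below the median of all genes with TMM scaling (0.031), so this adds nothing.

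Among 11293 named genes with a mean of at least 5 CPM, the 5 whose pattern over the 4 libraries was nearest to the mean of the 8 Prss genes were Ccdc13, Cers3, Piwil1, Gpr160 and Pde1c. Likeness was the root mean square difference of log2 CPM after centring each gene, and it was 0.066 for Ccdc13, 0.069 for Cers3, 0.072 for Piwil1, 0.077 for Gpr160 and 0.079 for Pde1c. Of the Prss genes themselves, Prss45 was nearest to their mean (0.139), followed by Prss46 (0.212), and Prss21 farthest (1.22). Piwil1 stood at 87.1 and 156 TPM in Znhit1_KO replicates 1 and 2, against 231 and 460 TPM in CTRL replicates 1 and 2. With 4 libraries, many genes can share such a pattern.

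The other genes with a Prss symbol did not all move in 1 direction. There were 30 of them in the table, of which 16 passed the filter and 6 were at 0 in every library. Of the 16, 9 had a negative and 7 a positive log2 change, with a median of -0.70, and 8 were lower and 1 higher in both Znhit1_KO libraries, beside 21.3% and 21.8% of all tested genes. The edgeR quasi-likelihood test with adjustment over all genes called 0 of the 16, and 0% of all genes; at an unadjusted p under 0.05 there were 5 lower (Prss8, Prss39, Prss47, Prss48 and Prss58) and 1 higher (Prss35), beside 7.75% and 2.99% of all genes. DESeq2 called 2 lower, Prss47 and Prss58, and 0 higher, where it called 3.86% of all genes lower and 0.46% higher.

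Prss35, which encodes a protease-like protein and was the most abundant of them, stood at 100 and 126 TPM in Znhit1_KO replicates 1 and 2, against 87.9 and 64.6 TPM in CTRL replicates 1 and 2. Both Znhit1_KO libraries were above both CTRL libraries, with a log2 change of 0.54 (SE 0.186). Prss47 stood at 0.356 and 1.25 TPM in Znhit1_KO and 2.5 and 4.90 TPM in CTRL, without overlap, and had a log2 change of -2.37 (SE 0.665). Prss48 (-1.11, SE 0.356) and Prss38 (-1.14, SE 0.467) also had no overlap. Prss36 (0.27, SE 0.328), the neurotrypsin gene Prss12 (0.54, SE 0.492) and Prss23 (0.47, SE 0.440) overlapped between genotypes.

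Prss58, chosen for mention after its values were seen, had 0 counts in both Znhit1_KO libraries and 33 and 83 estimated counts in CTRL replicates 1 and 2. With 3 counts per library in place of 0, the mean in Znhit1_KO would be 0.0203 CPM. That is 21.9-fold below the mean of 0.445 ± 0.284 CPM in CTRL (SD, n = 2). The ratio is not a lower bound, since it leaves out the spread in CTRL and the counts are estimates. Prss37, which mouse sperm need for the maturation of the surface protein ADAM3, had 6 counts in 1 Znhit1_KO library and 0 in the other 3.

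**Figure D4:**
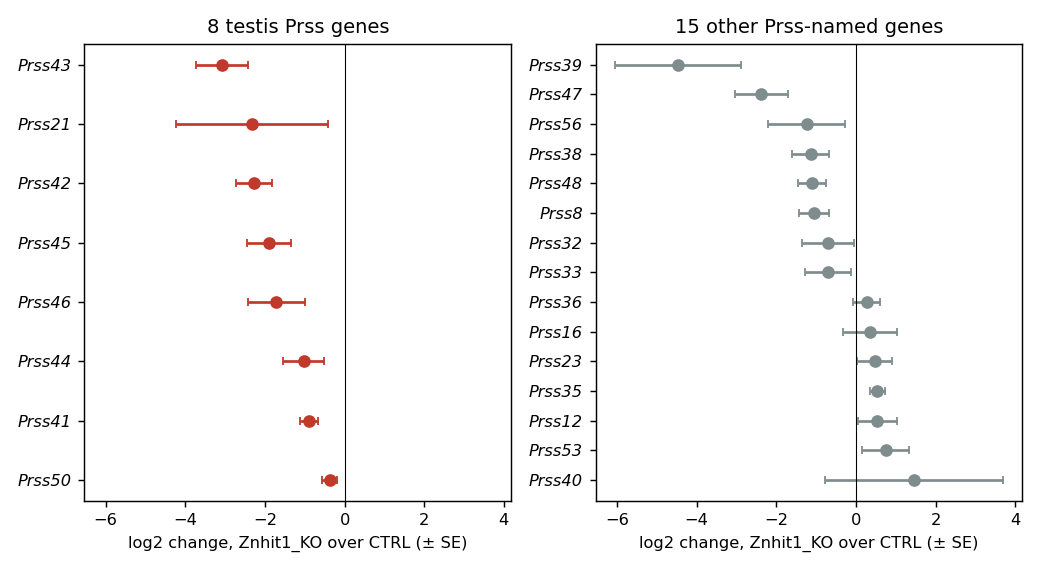
Log2 change (point) and its SE (bar) for the 8 Prss genes described here, left, and for 15 other genes with a Prss symbol, right, each ordered by its change; Prss58, with 0 counts in Znhit1_KO, is not drawn. The left panel runs from -3.07 to -0.38, and the right panel from -4.47 (Prss39) to 1.46 (Prss40), both of which had 0 counts in at least 1 library.

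Sperm surface and acrosome genes, with which testis proteases are known to work, were set beside them. Some genes stand in 2 of the lists: Clgn, Tmprss12, Acrv1, Spaca1 and Mybl1. Of 22 genes for ADAM proteins and the factors of their maturation, 17 were tested, 13 had a negative log2 change and the median was -1.34. Both Znhit1_KO libraries were lower for 12 and higher for 2, beside 21.3% and 21.8% of all tested genes. The test by edgeR called 0, DESeq2 called 8 lower, beside 3.86% of all genes, and 9 had an unadjusted edgeR p under 0.05, beside 7.75% of all genes lower and 2.99% higher. Tex101, a GPI-anchored germ cell protein, stood at 375 ± 72.9 CPM in Znhit1_KO and 542 ± 126 CPM in CTRL (SD, n = 2 each), and Adam2, a sperm surface protein gene, had a log2 change of -1.43 (SE 0.583).

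Of 20 acrosome genes, 12 were tested, 9 were negative with a median of -1.13, and 7 were lower and 0 higher in both Znhit1_KO libraries, again beside 21.3% and 21.8% of all tested genes. EdgeR called 0 and DESeq2 called 5 lower (3.86% of all genes), with 5 at an unadjusted edgeR p under 0.05 (7.75% of all genes lower and 2.99% higher). Pcsk4, a protease of another family that is made in germ cells, stood at 11.6 ± 0.978 CPM in Znhit1_KO and 26.3 ± 4.52 CPM in CTRL (SD, n = 2 each). The log2 change of Acrbp, the proacrosin binding protein gene, was -1.68 (SE 0.50), that of Zpbp -1.17 (SE 0.488) and that of Dpy19l2 -2.82 (SE 0.791).

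The membrane-anchored Tmprss relatives and the protease inhibitors had medians on the other side of 0. Of 17 Tmprss genes 7 were tested, and the median of the 7 was 0.33. Of the 7, 6 overlapped between genotypes, beside 13719 of all 24116 tested genes. Summed CPM of the Tmprss genes went the other way, with 6.84 and 8.10 in Znhit1_KO and 14.6 and 21.5 in CTRL. Among these, Tmprss12, known from male germ cells, stood at 3.56 ± 1.16 CPM in Znhit1_KO and 14.7 ± 5.97 CPM in CTRL (SD, n = 2 each), and was the 1 that DESeq2 called lower, beside 3.86% of all genes, while edgeR called 0, with 1 at an unadjusted p under 0.05. Of 15 inhibitor genes 12 were tested, with a median of 0.20. Of the 12, 7 overlapped between genotypes, beside 13719 of all 24116 tested genes. In both Znhit1_KO libraries 2 were lower and 3 higher, beside 21.3% and 21.8% of all tested genes. Serpina5, an inhibitor of acrosin, had a log2 change of 0.43 (SE 0.196), and Spint2 0.10 (SE 0.176), Serpinb6a -0.093 (SE 0.169) and Serpinh1 0.45 (SE 0.271). EdgeR called 0 inhibitors, with 2 at an unadjusted p under 0.05, and DESeq2 1 lower and 1 higher, beside 3.86% and 0.46% of all genes. Of 8 regulators of spermatocyte and spermatid genes, 7 were negative with a median of -0.50, and edgeR and DESeq2 called 0, with 1 at an unadjusted edgeR p under 0.05 (7.75% of all genes lower and 2.99% higher). Rfx2 had -0.69 (SE 0.286), Tcfl5 -0.61 (SE 0.336), Brdt -0.44 (SE 0.258) and Taf7l 0.082 (SE 0.177).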

How the data were processed

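The submitters' processing notes name DESeq2 1.38.3, StringTie 2.2.1, HISAT2 2.2.1, cutadapt 2.5 and the build mm10, without order, settings or annotation. In the deposited table of genes, each library has whole numbers for 55335 genes, with an excess at multiples of 4 (1109 genes at 4 in CTRL replicate 1, against a mean of 736 at the adjacent values). They were treated as the authors' estimated counts, and errors computed from them may be too small. For 25236 genes the authors' comparison, per the file headers, gives TPM, p-values, a mean normalised signal, log2 fold changes, and as scores a Wald statistic and a standard error.

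Estimated counts were fitted with edgeR 4.0.16 in R 4.3.3 (quasi-likelihood F-test, TMM, filterByExpr by group, genotype only, Benjamini-Hochberg over 24116 genes, threshold 0.05). SEs came from the F statistic, and a prior count of 2 entered log2 CPM. DESeq2 1.42.0, limma 3.58.1 (voom), other scalings, no filter and leaving out each library were alternatives. The fits were tested on simulated data. Positions came from GENCODE M21, which held 55154 of the gene identifiers. Protein sequences were not used here.

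The 9 genes and the 16 gene lists were chosen with earlier results of these data known. The genes named were Znhit1, the 9, other Prss genes with a mean of at least 1 CPM, annotated neighbours, the 5 nearest patterns, and up to 4 genes of highest mean CPM per list; the others were named after their values were seen.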

Additional observations from a re-analysis of the deposited data

How the results depend on the processing

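The negative median of the 8 Prss genes (-1.81) stayed negative under every alternative run, the lowest and highest values with 1 library left out being -2.40 and -0.66. It was -0.86 on the authors' TPM as log2(TPM + 1), where the pseudocount shrinks low values, and -0.52 with pachytene marker scaling, an alternative added after the data were seen. The count of 6 genes lower in both Znhit1_KO libraries was 3 with that scaling. Leaving out a library can only keep or raise that count (6 to 8), so it says nothing about stability. Of 96 single-gene values under alternatives, 82 moved by less than the spread between replicates and 10 by more. Leaving out 1 of 2 replicates shifts a mean by part of their difference, and several alternatives were close to the main fit. Many values would thus stay within the spread in any case, and the 82 do not measure stability. The other 4 changed sign: Prss21 without CTRL replicate 2 (1.01, against -8.41 without Znhit1_KO replicate 2), and with pachytene marker scaling Prss41 (0.22), Prss44 (0.23) and Prss50 (0.71). That scaling shifted all genes by a median of 1.12, and these 3 lay below that shift, as they had lain below the median with TMM scaling. The median of the other Prss genes (-0.70) was 0.40 with pachytene marker scaling, also below that shift, -1.09 with Sertoli marker scaling, which shifted all genes by a median of -0.33, and -0.36 with no filter on low counts, where more genes enter; with 1 library left out it was -0.81 to -0.40.

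The edgeR test called 0 genes, and 2590 at an unadjusted p under 0.05; DESeq2 called 1041, limma-voom 0, and edgeR 65 with pachytene marker scaling and 0 to 626 with 1 library left out, 626 being without CTRL replicate 1. The cause of these differences was not tested. With the replicate number as a block (replicate block) edgeR called 2737 genes and the Prss median was -1.66. Same-numbered libraries deviated together (correlation over genes 0.421), but the labels state no pairing and there are 2 pairs only, so the numbers were not taken to pair the libraries. Prss55, at 0 in every library, allows no comparison at this depth. For Prss21 the SE of 1.90 was close to the size of the change (-2.33), and the spread between replicates (SD 2.49) was larger.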
